A study of Mus musculus with 100 samples.

Results

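The 10 genes described here are Cytl1, which encodes the secreted protein cytokine-like 1, and 9 genes of the cartilage matrix, namely Col2a1, Acan, Comp, Col9a1, Col11a1, Col10a1, Matn1, Matn3 and Hapln1. They were chosen by name among the 17310 genes counted in knee joints of 3 mouse strains, and all 10 were found in the table. Cytl1 was lower in injured than in uninjured contralateral joints in 8 of 9 comparisons, while Acan was higher in 4 and Comp was higher in 5 and lower in 1. Col2a1, the most abundant of the genes per length, was higher in 1 of these 9 comparisons, in STR/ort joints at 2-weeks post-injury.

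Cartilage is a tissue of scattered chondrocytes that lay down and maintain a matrix of collagen fibrils and proteoglycans. Type II collagen (Col2a1) forms the body of the fibrils, type XI collagen (Col11a1) co-assembles with it, and type IX collagen (Col9a1) sits on the fibril surface. Aggrecan (Acan) is the large proteoglycan that holds water, and the link protein (Hapln1) fastens it to hyaluronan. Cartilage oligomeric matrix protein (Comp) is a thrombospondin that binds collagens and is also made in tendon and ligament, matrilins 1 and 3 (Matn1, Matn3) are adaptor proteins of the matrix, and type X collagen (Col10a1) is made by hypertrophic chondrocytes of the growth plate. Cytl1 is expressed by chondrocytes and their precursors.

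RNA was sequenced from knee joints of MRL/MpJ, C57BL/6 and STR/ort mice, which the labels call not susceptible, moderately susceptible and highly susceptible to post-traumatic osteoarthritis. The right knee of 10-weeks-old mice was injured with a single compressive load of 10 to 12 N on the tibia, which ruptures the anterior cruciate ligament, and the left knee of injured mice served as the uninjured contralateral joint. Uninjured mice of 0-day gave 4 libraries per strain. Each of the later times, 1-day, 1-week and then 2-weeks after injury, had 5 libraries per strain and joint except for 4 from uninjured MRL/MpJ and 4 from uninjured STR/ort joints at 1-week, so that 100 libraries fell into 21 groups. A contralateral joint belongs to an injured animal, and the whole joint was used with small traces of soft tissue, so that cartilage was 1 of several tissues in each library. In such bulk samples, fewer cells of a type and less RNA per cell cannot be told apart. The labels place the 70 libraries of 0-day, 1-day and 1-week in 1 batch and the 30 libraries of 2-weeks in another, so that a change of batch and a change of time cannot be told apart wherever 2-weeks is set beside an earlier time. The sex of the animals was not given in the sources used here.

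Total counts ranged from 6182016 to 20986027 per library with a median of 10582592. The 10 genes together took between 0.139% and 0.9% of the counts of a library. The chondrocyte markers Col2a1, Acan, Comp, Col9a1, Matn1, Hapln1, Sox9 and Lect1 were counted in every library, with the lowest count, 2, for Matn1. Traces of muscle varied: the summed level of 8 fast muscle markers lay more than 1.5-fold above or below the group median in 8 libraries of 8 groups, by factors from 0.618 to 1.97. The largest component of the variance within groups, with 23.3% of it, correlated with this sum (r = 0.92 over 100 libraries) and, in the opposite direction, with the mean of the 9 matrix genes (r = -0.49). Within groups, the correlation of single genes with the muscle sum ranged from -0.53 for Matn3 to -0.22 for Comp. These correlations are descriptions, over libraries that share 1 preparation protocol. Values with the fast muscle markers as a covariate, or without these 8 libraries, are given beside some of the results.

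Positions are those of RefSeq on GRCm38.p6, the assembly of mm10. Cytl1 lies at chr5:37735519-37739820, Acan at chr7:79053226-79115099, Comp at chr8:70373548-70382066, Hapln1 at chr13:89540529-89611832, Matn1 at chr4:130944385-130955476 and Matn3 at chr12:8947929-8972028, all on the plus strand. The collagen genes are Col2a1 at chr15:97975602-98004724 on the minus strand, and Col9a1 at chr1:24177589-24252738, Col11a1 at chr3:114030479-114220756 and Col10a1 at chr10:34389981-34397085 on the plus strand.

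RefSeq promoters were matched for 8 of the 10 genes, with 9 start sites because Col9a1 has 2; Col2a1 and Comp had no entry. The 250 bases upstream of the start are shown for Cytl1 and Acan, which changed in opposite directions after injury, and for Col10a1, the collagen of hypertrophic chondrocytes, on the plus strand from 5′ to 3′ with the dinucleotide CG and 3 searched motifs in capitals, namely the core of the TATA box, TATAAA, and 2 forms of the core that SOX factors bind, ACAAAG and also AACAAT, each on either strand.
Cytl1: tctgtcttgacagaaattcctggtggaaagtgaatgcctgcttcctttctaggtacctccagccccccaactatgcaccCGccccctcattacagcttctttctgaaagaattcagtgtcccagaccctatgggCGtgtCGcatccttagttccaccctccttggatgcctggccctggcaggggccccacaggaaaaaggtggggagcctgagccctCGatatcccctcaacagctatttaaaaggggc
Acan: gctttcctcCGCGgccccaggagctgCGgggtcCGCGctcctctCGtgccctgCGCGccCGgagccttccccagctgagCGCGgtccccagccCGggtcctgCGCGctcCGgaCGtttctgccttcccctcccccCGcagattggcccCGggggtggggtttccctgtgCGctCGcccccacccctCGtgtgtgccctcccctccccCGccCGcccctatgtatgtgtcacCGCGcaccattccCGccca
Col10a1: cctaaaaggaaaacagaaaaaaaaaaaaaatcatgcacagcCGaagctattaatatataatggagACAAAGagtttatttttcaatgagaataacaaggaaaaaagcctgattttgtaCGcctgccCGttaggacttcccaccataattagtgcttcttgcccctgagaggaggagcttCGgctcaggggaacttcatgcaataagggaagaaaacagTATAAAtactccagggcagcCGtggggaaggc
The Cytl1 stretch, chr5:37735269-37735518, holds 4 CG in 54.8% G or C, and the Acan stretch, chr7:79052976-79053225, holds 26 CG in 74.4% G or C, against medians of 6 CG and 52.4% over 32851 promoters. The Col10a1 stretch, chr10:34389731-34389980, holds 5 CG in 41.6% G or C, with TATAAA 32 bases and ACAAAG 185 bases before the start. Of all promoters of this length, 12.4% hold TATAAA, 16.5% ACAAAG and 9.42% AACAAT on either strand. A match of such short letters is a description and not a bound site.

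Levels are counts scaled to a common library size (CPM) by TMM factors over all libraries. Per kilobase of exon, the mean level over 100 libraries was highest for Col2a1 at 216 CPM per kb, followed by Comp at 148, Col10a1 at 82.0, Col11a1 at 53.2, Cytl1 at 52.7, Acan at 46.5, Col9a1 at 29.7, Hapln1 at 26.4, Matn3 at 11.6 and Matn1 at 1.58 CPM per kb. Thus Cytl1, a small transcript, stood near Acan and Col11a1 in level per length, and Matn1 was scarce, with 2 to 116 counts per library. The highest group mean exceeded the lowest 8.63-fold for Acan, 7.81-fold for Matn1, 6.65-fold for Cytl1, 5.72-fold for Comp and 5.70-fold for Matn3. The other 5 genes spanned 3.03-fold (Col2a1) to 4.17-fold (Col10a1). STR/ort joints at 1-week held the highest mean of Col2a1, Acan, Comp, Col11a1 and Hapln1, C57BL/6 joints at 0-day that of Col9a1, Matn3 and Cytl1, and MRL/MpJ joints the lowest mean of every gene except Matn1, which was lowest in injured C57BL/6 joints at 1-week. In the order of the 21 means, neighbours overlapped in their libraries in all 20 steps for 7 genes and in 19 for Acan, Comp and Matn3.

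For Cytl1, the 8 highest of the 21 group means were those of 0-day and uninjured joints of C57BL/6 and STR/ort, between 61.8 and 129 CPM, and the 5 lowest, between 19.4 and 22.2 CPM, were injured joints. The 0-day and uninjured MRL/MpJ joints, at 35.0 to 41.7 CPM, stood among the injured joints of the other strains in this order.

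**Figure D1:**
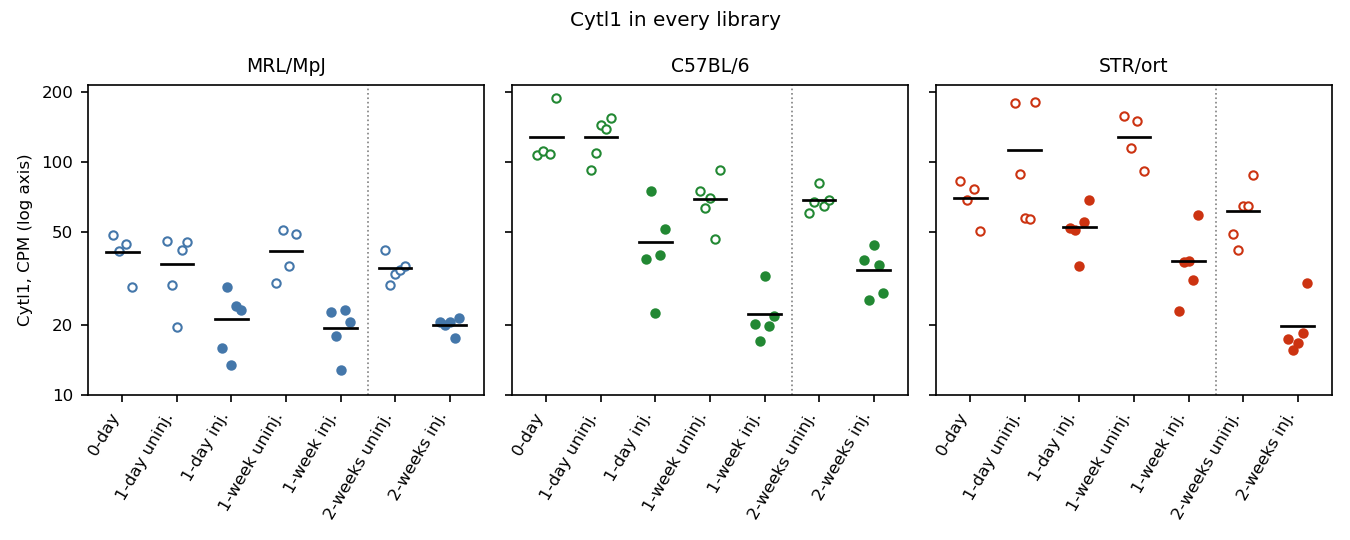
Cytl1 level in each library, in CPM on a log axis, by time point in 1 panel per strain. Open points are 0-day or uninjured joints, filled points injured joints and black bars group means, and the dotted line sets off the 2-weeks libraries of the other batch; injured joints lay below uninjured joints without overlap in 7 of 9 comparisons.

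Cytl1 was lower in injured than in uninjured contralateral joints from 1-day on, and at 1-week and 2-weeks in all 3 strains without overlap between libraries. At 1-day, the 5 injured C57BL/6 joints had 22.5, 38.4, 40.0, 51.6 and 75.1 CPM and the uninjured joints 92.6, 109, 139, 145 and 155 CPM. The injured STR/ort joints had 35.8, 50.9, 52.1, 55.5 and 68.6 CPM and the uninjured joints 57.1, 57.5, 88.8, 180.0 and 182 CPM. Every injured C57BL/6 joint lay below every uninjured one, whereas the STR/ort groups overlapped and the uninjured joints were split between 2 high and 3 lower libraries. In MRL/MpJ, injured joints had 13.5, 15.9, 23.2, 24.2 and 29.1 CPM and uninjured joints 19.5, 29.8, 42.1, 45.5 and 45.9 CPM. The log2 fold change was -1.49 ± 0.30 in C57BL/6 (SE; adjusted p = 0.00057) and -1.13 ± 0.30 in STR/ort (adjusted p = 0.0108). The MRL/MpJ difference of -0.77 ± 0.32 did not pass the test (adjusted p = 0.214). The STR/ort call was lost without uninjured replicate 1 (-0.90, adjusted p = 0.056) or without uninjured replicate 5 (-0.90, adjusted p = 0.0534), the 2 high libraries. Among the genes called lower at 1-day, Cytl1 ranked 41 of 232 by p in C57BL/6 and 302 of 467 in STR/ort.

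At 1-week, the injured C57BL/6 joints had 17.0, 19.8, 20.2, 21.8 and 32.4 CPM of Cytl1 and the uninjured joints 46.9, 63.6, 69.9, 75.1 and 92.2 CPM. The injured STR/ort joints had 23.0, 31.3, 37.2, 37.5 and 59.5 CPM and the uninjured joints 92.1, 115, 151 and 158 CPM. In MRL/MpJ the injured joints had 12.8, 17.9, 20.5, 22.7 and 23.1 CPM and the uninjured joints 30.3, 36.0, 49.3 and 51.0 CPM. The groups were apart in each strain, and Cytl1 stood at 0.476 of the uninjured level in MRL/MpJ, 0.325 in C57BL/6 and 0.292 in STR/ort. The log2 fold changes were -1.07 ± 0.24 (adjusted p = 0.00413), -1.62 ± 0.22 (adjusted p = 3.08e-06) and -1.77 ± 0.22 (adjusted p = 7.31e-07). Osteoblast and osteocyte markers were lower in the same injured STR/ort joints (4 of 6, median log2 fold change -0.82), while 0 of 6 were called in MRL/MpJ and 1 in C57BL/6 at 1-week, and their part in the Cytl1 difference was not tested.

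At 2-weeks, the injured MRL/MpJ joints had 17.5, 20.1, 20.5, 20.5 and 21.5 CPM of Cytl1 and the uninjured joints 29.6, 33.0, 34.3, 35.8 and 42.1 CPM. The injured C57BL/6 joints had 25.6, 27.4, 36.3, 38.1 and 44.1 CPM and the uninjured joints 60.8, 64.6, 67.8, 68.6 and 81.2 CPM. In STR/ort the injured joints had 15.5, 16.7, 17.4, 18.5 and 30.3 CPM and the uninjured joints 41.8, 48.9, 64.9, 65.0 and 88.4 CPM. The groups again did not overlap, and Cytl1 stood at 0.569 of the uninjured level in MRL/MpJ, 0.501 in C57BL/6 and 0.319 in STR/ort. The log2 fold changes were -0.81 ± 0.17 (adjusted p = 0.00602), -0.997 ± 0.17 (adjusted p = 9.12e-05) and -1.65 ± 0.17 (adjusted p = 2.38e-08). By p, Cytl1 came first among the genes called lower at 2-weeks in each strain, of 3 in MRL/MpJ, 12 in C57BL/6 and 55 in STR/ort. At 1-week it ranked 6 of 33, 3 of 185 and 6 of 612 in the same order of strains. Under the 8 other settings tried, the fast muscle covariate included, the 8 calls of Cytl1 were kept except that in MRL/MpJ at 2-weeks, which was lost in 1 fit of all libraries (adjusted p = 0.127).

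Comp, by contrast, was higher in injured joints of all 3 strains at 2-weeks and of MRL/MpJ and C57BL/6 at 1-week. At 1-week, the injured MRL/MpJ joints had 323, 324, 389, 417 and 427 CPM and the uninjured joints 169.6, 179, 183 and 233 CPM. The injured C57BL/6 joints had 334, 350.5, 360.4, 401 and 491 CPM and the uninjured joints 139, 188, 193, 193 and 288 CPM. In STR/ort the injured joints had 766, 787, 1024, 1075 and 1391 CPM and the uninjured joints 719, 1011, 1186 and 1315 CPM. The MRL/MpJ and C57BL/6 groups did not overlap, at log2 fold changes of 1.01 ± 0.18 (adjusted p = 0.000473) and 0.98 ± 0.17 (adjusted p = 0.000133). In C57BL/6, mean Comp was 387 CPM in injured and 200 CPM in uninjured joints at 1-week and 502 CPM at 0-day. The uninjured C57BL/6 joints were called lower than 0-day joints (-1.36, adjusted p = 1.02e-06). The STR/ort groups overlapped, and uninjured STR/ort joints already had the highest mean of Comp among the 21 groups, at 1058 ± 258 CPM (SD, n = 4; log2 fold change of injury -0.07 ± 0.18, adjusted p = 0.819).

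At 2-weeks, the injured STR/ort joints had 537, 629.9, 698, 712 and 742 CPM of Comp and the uninjured joints 279, 281, 302, 347 and 483 CPM. The injured C57BL/6 joints had 392, 508, 538, 765 and 768 CPM and the uninjured joints 259, 274, 296, 308 and 322 CPM. In MRL/MpJ the injured joints had 195, 333, 350.4, 353 and 362 CPM and the uninjured joints 161, 187, 196, 204 and 216 CPM. STR/ort and C57BL/6 groups did not overlap, with log2 fold changes of 0.98 ± 0.17 (adjusted p = 5.95e-05) and 1.03 ± 0.17 (adjusted p = 6.29e-05), whereas 1 injured MRL/MpJ joint lay within the uninjured range (0.71 ± 0.17, adjusted p = 0.0125). The MRL/MpJ call was lost without injured replicate 2 (0.66, adjusted p = 0.0527) or uninjured replicate 2 (0.66, adjusted p = 0.0567).

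At 1-day, Comp was lower in injured STR/ort joints, which had 381, 382, 518, 562 and 762 CPM against 525, 639, 849, 849 and 1022 CPM in uninjured joints. These groups overlapped, the log2 fold change was -0.60 ± 0.19 (adjusted p = 0.0387), and the call was lost in 12 of the fits that left out 1 library (largest adjusted p 0.132) and with the fast muscle covariate (adjusted p = 0.15). The call was also lost with RUVg (adjusted p = 0.0508) and in 1 fit of all libraries (-0.58, a fold below 1.5). Tendon markers (Tnmd, Scx, Mkx, Thbs4 and Fmod) moved in injured joints too. At 1-week 4, 4 and 5 of the 5 were higher in MRL/MpJ, C57BL/6 and STR/ort, with median log2 fold changes of 1.23, 1.13 and 1.24, and at 2-weeks 3, 4 and 5 were higher, with medians of 0.61, 1.07 and 0.95. Their summed level at 1-week was 974 to 1436 CPM in injured and 371 to 518 CPM in uninjured MRL/MpJ joints, 1150.2 to 1714 and 527 to 689 CPM in C57BL/6, and 3137 to 4435 and 1252 to 2092 CPM in STR/ort. Of 5 synovial fibroblast markers (Prg4, Pdpn, Has1, Clu and Cd55), 3, 3 and 1 were higher at 1-week in the same order of strains and 1 lower in STR/ort, with medians of 1.13, 1.41 and -0.27, and 3 were higher in each strain at 2-weeks. Their summed level at 1-week was 2638 to 3200 CPM in injured and 1406 to 1488 CPM in uninjured MRL/MpJ joints, 2625 to 2979 and 1024 to 1512 CPM in C57BL/6, and 7310 to 11012 and 6400 to 19037 CPM in STR/ort. No marker of either list was at 0 in all libraries of any group, and within groups the correlation of Comp with the tendon sum was 0.56 and with the sum of synovial fibroblast markers 0.51 (descriptions, 100 libraries). The part of these tissues in the Comp differences was not tested.

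Acan was higher in injured joints of C57BL/6 and STR/ort at 1-week and 2-weeks. At 1-week, the injured C57BL/6 joints had 442, 448, 449, 503 and 776 CPM and the uninjured joints 161, 184, 227, 232 and 295 CPM. The injured STR/ort joints had 788, 899.7, 1012, 1181 and 1510.4 CPM and the uninjured joints 494, 501, 576 and 606 CPM. In MRL/MpJ the injured joints had 202, 223, 294, 301 and 317 CPM and the uninjured joints 141, 171, 188 and 209.7 CPM. C57BL/6 and STR/ort groups were apart, at log2 fold changes of 1.28 ± 0.18 (adjusted p = 4.59e-06) and 0.98 ± 0.19 (adjusted p = 0.000314). In C57BL/6, mean Acan was 523 CPM in injured and 220 CPM in uninjured joints at 1-week and 495 CPM at 0-day. The uninjured C57BL/6 joints were called lower than 0-day joints (-1.20, adjusted p = 6.38e-05). MRL/MpJ groups overlapped in 1 library pair and the difference of 0.62 ± 0.19 did not pass the test (adjusted p = 0.052). It passed with DESeq2 (0.62, adjusted p = 0.0217), with filterByExpr (adjusted p = 0.0481) and without the libraries that stood apart in muscle. In the fit with the replicate block the adjusted p was 0.00782, but the log2 fold change of 0.58 was below a fold of 1.5.

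At 2-weeks, the injured STR/ort joints had 326, 423, 441, 477 and 500.2 CPM of Acan and the uninjured joints 215, 218, 218, 247 and 302 CPM, without overlap. The injured C57BL/6 joints had 185, 259, 311, 358 and 382 CPM and the uninjured joints 171, 175, 178, 217 and 217 CPM, with 1 injured joint inside the uninjured range. The log2 fold changes were 0.86 ± 0.15 (adjusted p = 0.000108) and 0.64 ± 0.15 (adjusted p = 0.00577). Without C57BL/6 injured replicate 1 (0.54) or 4 (0.57) the fold fell below 1.5. In MRL/MpJ the difference was 0.31 ± 0.15 (adjusted p = 0.684), and at 1-day Acan did not pass the test in any strain (log2 fold changes of 0.17 in MRL/MpJ, -0.07 in C57BL/6 and -0.12 in STR/ort).

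**Figure D2:**
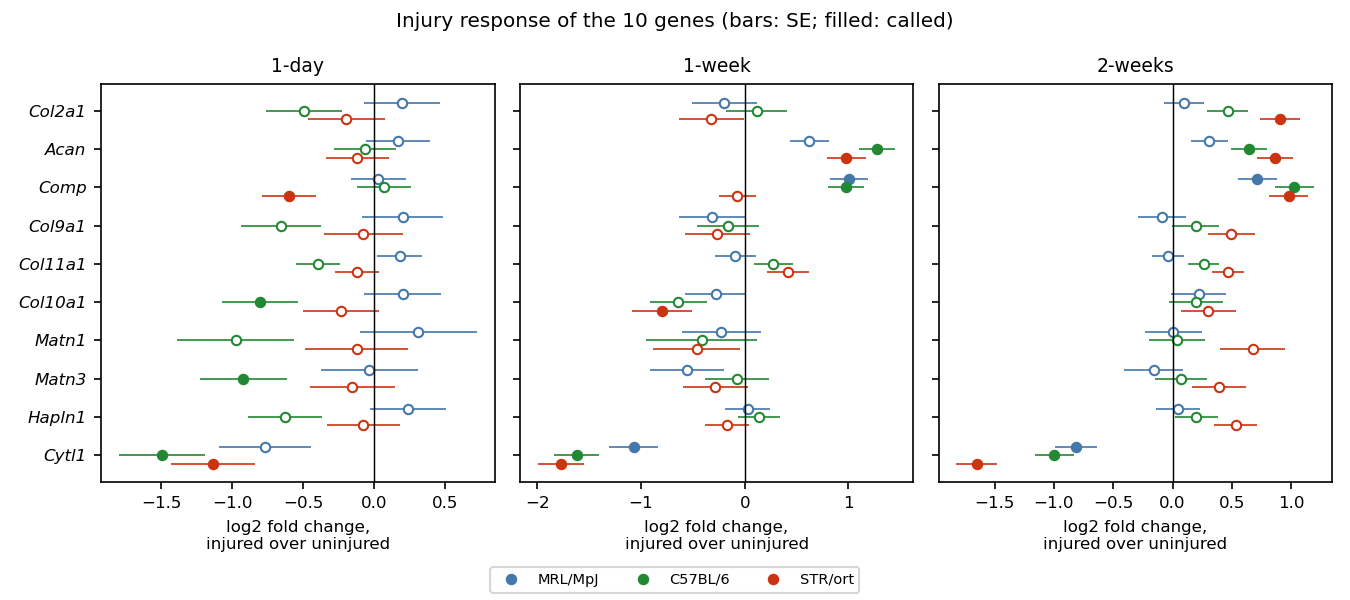
Log2 fold change of injured over uninjured contralateral joints for the 10 genes, with SE as error bars, in 1 panel per time point. Filled points passed adjusted p below 0.05 and fold above 1.5; Cytl1 lay between -1.77 and -0.77 in all 9 comparisons, while Acan reached 1.28 and Comp 1.03.

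Among the collagens of the fibril, Col2a1 was called once, in STR/ort at 2-weeks, where injured joints had 2664, 3092, 3353, 3744 and 3934 CPM and uninjured joints 1497, 1664, 1721, 1908 and 2207 CPM. These groups were apart, at a log2 fold change of 0.91 ± 0.17 (adjusted p = 0.00025), while C57BL/6 had 0.46 ± 0.17 (adjusted p = 0.0904) and MRL/MpJ 0.10 ± 0.17 at that time. Col11a1 in the same STR/ort joints had 683, 799, 828, 855 and 949 CPM injured and 512, 585, 599.9, 622 and 665 CPM uninjured. Its groups did not overlap and its adjusted p was 0.0163, but its log2 fold change of 0.47 ± 0.13 was below a fold of 1.5. Col9a1 was 0.50 ± 0.20 (adjusted p = 0.0991) there, and Col9a1 and Col11a1 were called in 0 of the 9 injury comparisons. With the fast muscle covariate Col2a1 was also called higher in C57BL/6 at 2-weeks (0.65, adjusted p = 0.000766) and lower in STR/ort at 1-week (-0.98, adjusted p = 0.0197).

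Of the remaining genes, Col10a1 and Matn3 were lower in injured C57BL/6 joints at 1-day and Col10a1 in injured STR/ort joints at 1-week. At 1-day, Col10a1 had 71.3, 175, 188, 201 and 343 CPM in injured and 261, 294, 351, 374 and 428 CPM in uninjured C57BL/6 joints. Matn3 had 10.2, 34.0, 34.5, 35.8 and 60.4 CPM in the former and 57.5, 58.5, 60.1, 61.5 and 94.4 CPM in the latter. In each case 1 injured joint reached into the uninjured range and 1 lay far below the others (Col10a1 -0.80 ± 0.27, adjusted p = 0.0332; Matn3 -0.92 ± 0.31, adjusted p = 0.0316). At 1-week, Col10a1 had 129, 159.9, 162, 214 and 269 CPM in injured and 242, 279, 337 and 433 CPM in uninjured STR/ort joints (-0.80 ± 0.29, adjusted p = 0.0461). These 3 calls were lost in 6, 5 and 10 of the fits that left out 1 library, in that order, and the last also with DESeq2 (-0.78, adjusted p = 0.0792). Col10a1 in C57BL/6 at 1-week (-0.64, adjusted p = 0.15) did not pass the test, but was called lower with RUVg (-0.94, adjusted p = 0.0115) and with the fast muscle covariate (-0.99, adjusted p = 0.0135). Osteoblast and osteocyte markers were lower beside the last of them, 4 of 6 in STR/ort at 1-week (median log2 fold change -0.82), with 621 to 780 CPM summed in injured and 889 to 1664 CPM in uninjured joints, and their part in it was not tested. Matn1 and Hapln1 were called in 0 of 9 comparisons, Hapln1 with an adjusted p of 0.0464 and a fold below 1.5 in STR/ort at 2-weeks (0.53 ± 0.18). With the fast muscle covariate, Matn1 (-1.17, adjusted p = 0.0319), Hapln1 (-0.82, adjusted p = 0.0158), Col9a1 (-0.90, adjusted p = 0.012) and Col2a1 (-0.73, adjusted p = 0.0369) were also called lower in injured C57BL/6 joints at 1-day.

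Counted over all 10 genes, injury calls are to be read against the share of all 17310 genes called. At 1-day 0 of 10 were called in MRL/MpJ (2.02% of all genes), 3 lower in C57BL/6 (5.6%) and 2 lower in STR/ort (4.31%). At 1-week 1 was higher and 1 lower in MRL/MpJ (3.13%), 2 higher and 1 lower in C57BL/6 (5.82%), and 1 higher and 2 lower in STR/ort (9.21%). At 2-weeks 1 was higher and 1 lower in MRL/MpJ (1.16%), 2 higher and 1 lower in C57BL/6 (2.95%), and 3 higher and 1 lower in STR/ort (4.66%). The median log2 fold change of the 10 genes was -0.64 at 1-day in C57BL/6 and 0.51 at 2-weeks in STR/ort, and lay between -0.27 and 0.20 in the other 7 comparisons, while that of all genes lay between -0.03 and 0.01. Fast muscle markers were lower in injured STR/ort joints at 1-day (5 of 8, median -0.74) and 1-week (6 of 8, median -0.74) and at 1-week in C57BL/6 (2 of 8), 1 was higher in C57BL/6 at 1-day, and 0 of 8 were called in the other comparisons, those of 2-weeks included. Without the 8 libraries that stood apart in muscle, the calls of Cytl1 and Acan and those of Comp at 1-week and 2-weeks were kept.

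Whether the injury response differed between strains was tested as an interaction. Comp alone among the 10 genes was called, at 1-week, where its response in STR/ort was lower by 1.08 ± 0.26 on the log2 scale than in MRL/MpJ (adjusted p = 0.0291; 0.884% of all genes called) and by 1.05 ± 0.25 than in C57BL/6 (adjusted p = 0.0445; 0.491%). In STR/ort, mean Comp was 458 CPM at 0-day, 1058 CPM in uninjured and 1009 CPM in injured joints at 1-week. Leaving out 1 library lost the interaction calls in 8 and 22 fits, and RLE size factors lost the call against C57BL/6 (-1.03, adjusted p = 0.05). With the replicate number as a block the values were -1.16 (adjusted p = 0.000651) and -1.20 (adjusted p = 0.000296). At 1-week the labels name no animals. Same-numbered joints correlated above 0.1 in every pair of MRL/MpJ and STR/ort and in 3 of 5 of C57BL/6. Such correlations cannot show pairing, so that the block values at 1-week are not taken as paired ones. The third pair of strains at 1-week had no call among all genes (0%), and at 1-day 0 of 10 were called in C57BL/6 against MRL/MpJ (0.318%), STR/ort against MRL/MpJ (0.162%) and STR/ort against C57BL/6 (2.66%). At 2-weeks, 0 of 10 were called in the same pairs (0%, 0.451% and 0.0462%). The labels name the same animal for both joints there, which the main fit did not use. The response of Cytl1 at 2-weeks differed between STR/ort and MRL/MpJ by -0.83 ± 0.24, which did not pass the test (adjusted p = 0.126) but passed it in the paired fit with the replicate block (-0.83, adjusted p = 0.0115). It also passed with RUVg (adjusted p = 0.0329), the fast muscle covariate (adjusted p = 0.0499) and without the libraries apart in muscle (adjusted p = 0.039). Col2a1 in this pair at 2-weeks passed with RUVg (0.84, adjusted p = 0.0339) and the covariate (0.87, adjusted p = 0.00585), but not with the block (0.84, adjusted p = 0.172). At 1-week, Col11a1 in the same pair of strains was at 0.51 ± 0.29 (adjusted p = 0.474) and passed with the block as well (0.59, adjusted p = 0.0402). Over the 30 tests of each time point, the unadjusted p was below 0.05 in 7 at 1-day and 6 at 2-weeks, and DESeq2 called 0 at both.

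Because the amount of cartilage in a library can differ, each gene was also set against Col2a1 in the same library, as a description. The log2 ratio of Cytl1 to Col2a1 at 2-weeks was -7.43 on average in injured STR/ort joints (from -7.73 to -7.01) and -4.89 in uninjured joints (from -5.36 to -4.23), the widest gap of the 9 comparisons. Col2a1 itself was called higher in these injured joints (0.91), and the log2 fold change of Cytl1 itself was -1.65 there and -1.77 in STR/ort at 1-week. It was -6.12 against -4.68 in C57BL/6 and -5.93 against -5.06 in MRL/MpJ at that time. At 1-week it was -6.21 against -4.78 in STR/ort, -5.83 against -4.11 in C57BL/6 and -5.82 against -5.04 in MRL/MpJ, so that injured means were lower throughout. The ratio of Acan to Col2a1 at 1-week was -1.29 ± 0.34 (SD, n = 5) in injured and -2.45 ± 0.39 (SD, n = 5) in uninjured C57BL/6 joints, and -1.35 ± 0.41 (SD, n = 5) and -2.68 ± 0.14 (SD, n = 4) in STR/ort. At 2-weeks in STR/ort, where both genes were called higher, it was -2.95 in injured and -2.91 in uninjured joints. The ratio of Comp to Col2a1 at 1-week was -1.54 against -2.83 in MRL/MpJ, -1.70 against -2.59 in C57BL/6 and -1.44 against -1.75 in STR/ort.

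**Figure D3:**
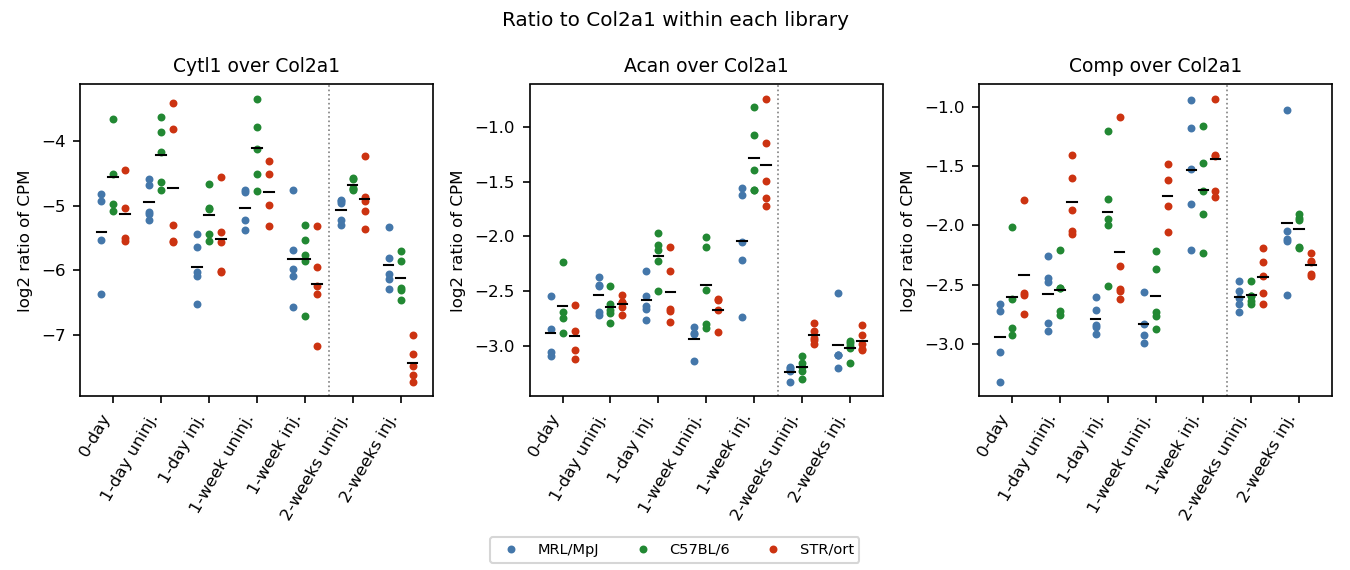
Log2 ratio of Cytl1, Acan and Comp to Col2a1 in each library by strain and time point, with group means as bars and a dotted line before the 2-weeks batch. The mean Cytl1 ratio of injured joints reached -7.43 in STR/ort at 2-weeks against -4.89 in uninjured joints, while the Acan ratio there was -2.95 against -2.91.

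Before injury, at 0-day, C57BL/6 joints had more RNA of 9 of the 10 genes than MRL/MpJ joints, and STR/ort joints more Comp and Cytl1 than MRL/MpJ joints. Cytl1 had 29.1, 41.6, 44.6 and 48.8 CPM in MRL/MpJ, 50.8, 69.1, 76.4 and 83.3 CPM in STR/ort and 107, 109, 112 and 189 CPM in C57BL/6. Comp had 199, 226, 231 and 243 CPM in MRL/MpJ, 386, 398, 519 and 527 CPM in STR/ort and 336, 451, 519 and 703 CPM in C57BL/6. The strains were apart for Cytl1, and MRL/MpJ lay below both other strains for Comp. Col2a1 had 1259.7, 1489, 1939 and 2426 CPM in MRL/MpJ, 1821, 2281, 2389 and 3476 CPM in STR/ort and 1359, 3415, 3783 and 4309.7 CPM in C57BL/6, where 1 library lay in the MRL/MpJ range.

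The log2 fold changes of C57BL/6 over MRL/MpJ at 0-day were 1.68 ± 0.19 for Cytl1 (adjusted p = 1.53e-06), 1.66 ± 0.30 for Matn3 (adjusted p = 0.000265), 1.20 ± 0.16 for Comp (adjusted p = 1.43e-05) and 1.12 ± 0.19 for Acan (adjusted p = 0.000119). Hapln1, Col9a1, Col10a1, Col11a1 and Col2a1 were higher by 1.20, 1.18, 1.15, 0.94 and 0.90, and Matn1 did not pass the test (0.18, adjusted p = 0.701). Thus 9 of 10 genes were called, against 15.9% of all genes, with a median log2 fold change of 1.16 against 0.01. In STR/ort over MRL/MpJ 2 were called (14.8% of all genes), Comp at 1.03 ± 0.16 (adjusted p = 7.6e-05) and Cytl1 at 0.76 ± 0.19 (adjusted p = 0.00412). In STR/ort against C57BL/6 6 were lower (13.8%), from -0.64 for Acan to -0.98 for Matn3, with Cytl1 at -0.92 ± 0.18 (adjusted p = 0.000571). The call of Col9a1 in the last pair (-0.75, adjusted p = 0.0465) was lost in 9 fits without 1 library, with RLE (adjusted p = 0.0614), DESeq2 (adjusted p = 0.16), RUVg (adjusted p = 0.21) and filterByExpr (adjusted p = 0.0504). In the same pair Col10a1 and Matn3 lost their calls with DESeq2 (adjusted p = 0.0778 and 0.0503) and RUVg (adjusted p = 0.18 and 0.108), Col10a1 in 2 fits without 1 library, and Acan with RUVg (adjusted p = 0.0918) and in 3 fits without 1 library. In the first pair Col2a1 lost its call once MRL/MpJ replicate 3 was left out (adjusted p = 0.053).

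Muscle RNA differed between the strains at 0-day as well. The fast muscle sum was 34949 to 56977 CPM in C57BL/6, 77289 to 93373 CPM in MRL/MpJ and 80331 to 90282 CPM in STR/ort, and 8 of 8 markers were lower in C57BL/6 than in MRL/MpJ (median log2 fold change -0.80) and 7 of 8 higher in STR/ort than in C57BL/6 (0.84). With the fast muscle sum as a covariate, 8 of the 9 genes called higher in C57BL/6 than in MRL/MpJ changed sign and Cytl1 stood at 0.62 (adjusted p = 0.407), the 6 called lower in STR/ort than in C57BL/6 changed sign. With it 3 calls were made in 30 tests, of which 1, Comp in STR/ort over C57BL/6 (1.04, adjusted p = 0.0197), was not called without it. Since the muscle sums of C57BL/6 did not overlap with those of the other strains, muscle content and strain cannot be told apart in these 2 pairs. Comp (0.98, adjusted p = 1.96e-07) and Cytl1 (0.71, adjusted p = 0.000859) in STR/ort over MRL/MpJ, 2 strains with overlapping muscle sums, kept their calls.

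**Figure D4:**
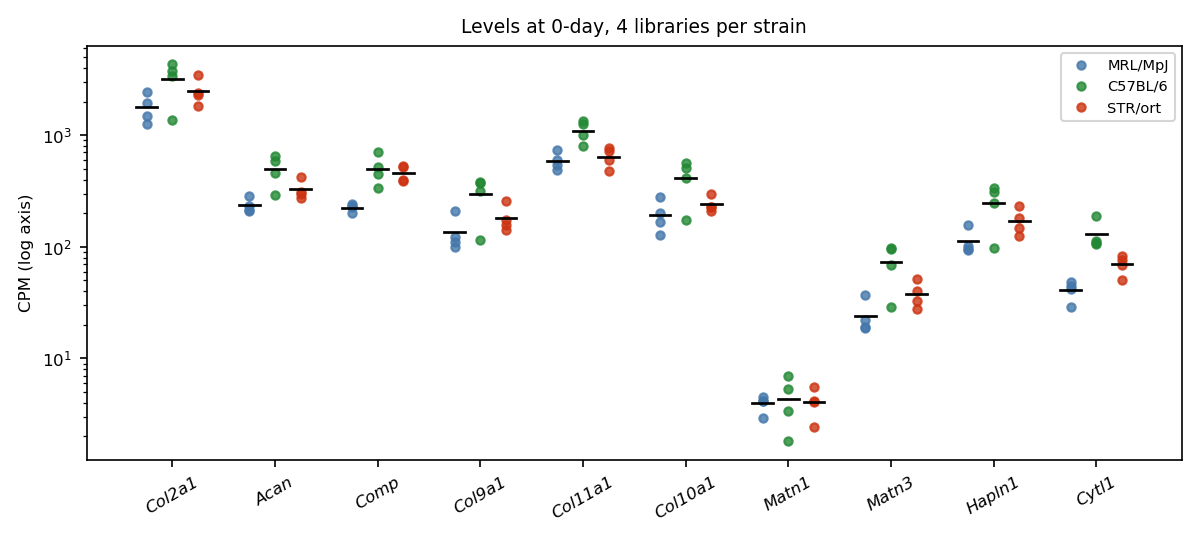
Level of the 10 genes at 0-day, in CPM on a log axis, for the 4 libraries of each strain, with means as bars. MRL/MpJ was lowest for Cytl1 (29.1 to 48.8 CPM) and Comp (199 to 243 CPM) without overlap with the other strains.

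After injury the strain differences were followed in uninjured and injured joints. In uninjured joints at 1-day 9 genes were higher in C57BL/6 than in MRL/MpJ (14.8% of all genes called), 9 higher in STR/ort than in MRL/MpJ (22.6%) and 1 higher in STR/ort than in C57BL/6 (10.5%). That gene was Comp (0.97 ± 0.19, adjusted p = 0.000238), which stood 2.12 ± 0.20 above MRL/MpJ in STR/ort on the log2 scale (adjusted p = 3.64e-10). Cytl1 was 1.84 ± 0.31 above MRL/MpJ in C57BL/6 and 1.67 ± 0.30 in STR/ort. In injured joints at 1-day 4 genes were higher in C57BL/6 than in MRL/MpJ (16.3%), 7 in STR/ort than in MRL/MpJ (20.3%) and 1, Hapln1, in STR/ort than in C57BL/6 (12.4%). Of these 12 calls in injured joints, 2 were kept with 1 RUVg factor and 3 with the fast muscle covariate. In STR/ort over MRL/MpJ, Col2a1, Acan, Col9a1, Matn3, Hapln1 and Cytl1 (0.16, adjusted p = 0.877 with RUVg) lost their calls under both, as did Hapln1 in STR/ort over C57BL/6 (0.44, adjusted p = 0.428 with RUVg). Fast muscle markers were lower in uninjured STR/ort than MRL/MpJ joints (7 of 8, median -0.74), and with 1 RUVg factor from 25 housekeeping genes the calls of this pair were lost except that of Comp (Cytl1 0.43, adjusted p = 0.593).

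At 1-week more of the genes were called in STR/ort joints against the other strains than between those, and part of these calls depended on how muscle and scaling were treated. In uninjured joints 9 genes were higher in STR/ort than in MRL/MpJ (24.4%) and 10 than in C57BL/6 (22.2%), and in injured joints 9 (29.5%) and 9 (25.1%). In injured STR/ort over C57BL/6 joints, Matn3 lost its call in 20 fits without 1 library and with DESeq2 (adjusted p = 0.0676), and Col9a1 in 6 such fits. Col10a1 in injured STR/ort over MRL/MpJ joints lost it in 5. In uninjured STR/ort over C57BL/6 joints, Col9a1 and Col10a1 lost it in 5 each, Col11a1 in 2 and Matn3 in 1. Comp led the uninjured comparisons, at 2.49 ± 0.20 (adjusted p = 4.57e-11) and 2.42 ± 0.18 (adjusted p = 1.36e-11), and Acan the injured comparison with MRL/MpJ at 1.99 ± 0.18 (adjusted p = 2.39e-10). Summed tendon and synovial fibroblast markers, given above, were also higher in uninjured STR/ort joints at 1-week than in those of the other strains. The part of these tissues in the Comp difference was not tested. C57BL/6 and MRL/MpJ differed less: 1 gene was higher and 1 lower in uninjured joints (8.53%), Cytl1 (0.74 ± 0.23, adjusted p = 0.0217) and Matn1 (-1.83 ± 0.45, adjusted p = 0.00405), and 2 were higher and 1 lower in injured joints (9.47%). This call of Cytl1 was lost with the fast muscle covariate (0.58, a fold below 1.5), without the libraries that stood apart in muscle (0.62, adjusted p = 0.0807) and in 3 fits without 1 library (largest adjusted p = 0.0967). Fast muscle markers were lower in STR/ort beside these differences, 8 of 8 against MRL/MpJ and 4 of 8 against C57BL/6 in uninjured joints (medians -0.95 and -0.70) and 8 of 8 in both injured comparisons (-1.39 and -1.07). With 1 RUVg factor, Comp of the uninjured joints kept its call in both comparisons, whereas Col2a1, Col9a1, Col10a1 and Matn3 turned negative in both; Acan against C57BL/6 (0.76, adjusted p = 0.0558), Cytl1 against MRL/MpJ (0.92, adjusted p = 0.0926) and Cytl1 against C57BL/6 (0.27, adjusted p = 0.632) lost their calls. The covariate kept 9 of the 21 calls of the 3 uninjured pairs. Of the 21 calls in injured joints, RUVg kept 4 and the covariate 7. In STR/ort over both strains Col2a1 (-0.70 and -0.59) and Col9a1 (-0.49 and -0.78) turned negative with RUVg in injured joints, and Acan over C57BL/6 lost its call (0.50, adjusted p = 0.157).

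At 2-weeks, 0 of 8 fast muscle markers were called in any strain comparison. In uninjured joints 8 genes were higher in C57BL/6 than in MRL/MpJ (9.83%), 9 were higher and Matn1 lower in STR/ort than in MRL/MpJ (13.8%), and Matn1 and Matn3 were lower in STR/ort than in C57BL/6 (9.78%). The last call of Matn3 was lost with RUVg (-0.52, adjusted p = 0.0571), in 1 fit of all libraries (-0.64, adjusted p = 0.123), with the fast muscle covariate (-0.56, a fold below 1.5) and in 5 fits without 1 library. Against MRL/MpJ, the calls of Matn1 and Matn3 were lost in 1 fit of all libraries (adjusted p = 0.136 and 0.135) and in 4 and 5 fits without 1 library, and that of Matn3 also with RUVg (adjusted p = 0.0544). With RUVg the folds of Acan (0.51), Comp (0.52), Col9a1 (0.57) and Hapln1 (0.49) in C57BL/6 over MRL/MpJ and of Col2a1 (0.53) and Col11a1 (0.58) in STR/ort over MRL/MpJ fell below 1.5 as well. Fits without 1 library lost the calls of Acan in 3, Comp in 4, Col2a1 in 4 and Col11a1 in 1 of these cases, and 1 fit of all libraries that of Col2a1 (adjusted p = 0.0824). With the fast muscle covariate, the folds of Acan (0.58) and Comp (0.58) in C57BL/6 over MRL/MpJ were also below 1.5. In injured joints 9 were higher in C57BL/6 than in MRL/MpJ (11.5%) and 8 in STR/ort than in MRL/MpJ (18.9%), led by Acan at 1.49 ± 0.15 (adjusted p = 3.34e-09) and with Col2a1 at 1.41 ± 0.17 (adjusted p = 7.25e-08). Cytl1 was not among them: injured STR/ort and MRL/MpJ joints had 19.7 ± 6.05 (SD, n = 5) and 20.02 ± 1.5 CPM (SD, n = 5), at a log2 fold change of -0.02 ± 0.18 (adjusted p = 0.952). It was the 1 gene called between injured STR/ort and C57BL/6 joints (10.4%), lower by 0.80 ± 0.18 in STR/ort on the log2 scale (adjusted p = 0.000802).

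Contralateral joints were compared with 0-day joints of the same strain within the first batch, and the 1-day and 1-week comparisons share the 0-day libraries. In MRL/MpJ 0 of 10 genes were called at 1-day (0.0924% of all genes) and at 1-week (0%), and in C57BL/6 0 of 10 at 1-day (0.0693%). At 1-week all 10 were lower in uninjured C57BL/6 joints than at 0-day (5.72%), from -0.93 ± 0.27 for Cytl1 (adjusted p = 0.0145) to -2.20 ± 0.48 for Matn1 (adjusted p = 0.000714), with Comp at -1.36 ± 0.20 (adjusted p = 1.02e-06) and Col2a1 at -1.39 ± 0.32 (adjusted p = 0.0013). The median log2 fold change of the 10 genes was -1.32. Other lists fell beside them, 6 of 6 osteoblast and osteocyte markers (median -0.90), 4 of 5 tendon markers (-1.08) and 3 of 5 synovial fibroblast markers (-0.79), while 0 of 8 fast muscle markers (0.37) and 0 of 5 erythroid markers (0.43) were called. The part of a different mixture of tissues was not tested. Without the libraries of replicate number 2 or 4 in every group, Col9a1, Col10a1, Matn3 and Cytl1 lost their calls, and Cytl1 also lost it with the fast muscle covariate (-0.68, adjusted p = 0.0602).

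In STR/ort the change was in the other direction: Comp was higher in uninjured joints than at 0-day at 1-day (0.76 ± 0.20, adjusted p = 0.00267; 9.92% of all genes called) and at 1-week (1.19 ± 0.21, adjusted p = 8.54e-06; 13.6%). At 1-week Acan (0.73 ± 0.24, adjusted p = 0.0137) and Cytl1 (0.87 ± 0.29, adjusted p = 0.0173) were higher as well. All 8 fast muscle markers were lower beside these calls, with medians of -1.10 at 1-day and -1.15 at 1-week. With the muscle sum as a covariate, Acan (0.19, adjusted p = 0.682), Cytl1 (0.24, adjusted p = 0.675) and Comp at 1-day (0.59, adjusted p = 0.0877) lost their calls. RUVg lost the same 3 calls (Acan 0.42, adjusted p = 0.409; Cytl1 0.11, adjusted p = 0.889; Comp at 1-day 0.53, adjusted p = 0.34). So did leaving out replicate number 1 for Acan (adjusted p = 0.0826) and Cytl1 (adjusted p = 0.0573), number 4 for Acan (adjusted p = 0.102) and number 2 for Comp at 1-day (adjusted p = 0.0675).

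**Figure D5:**
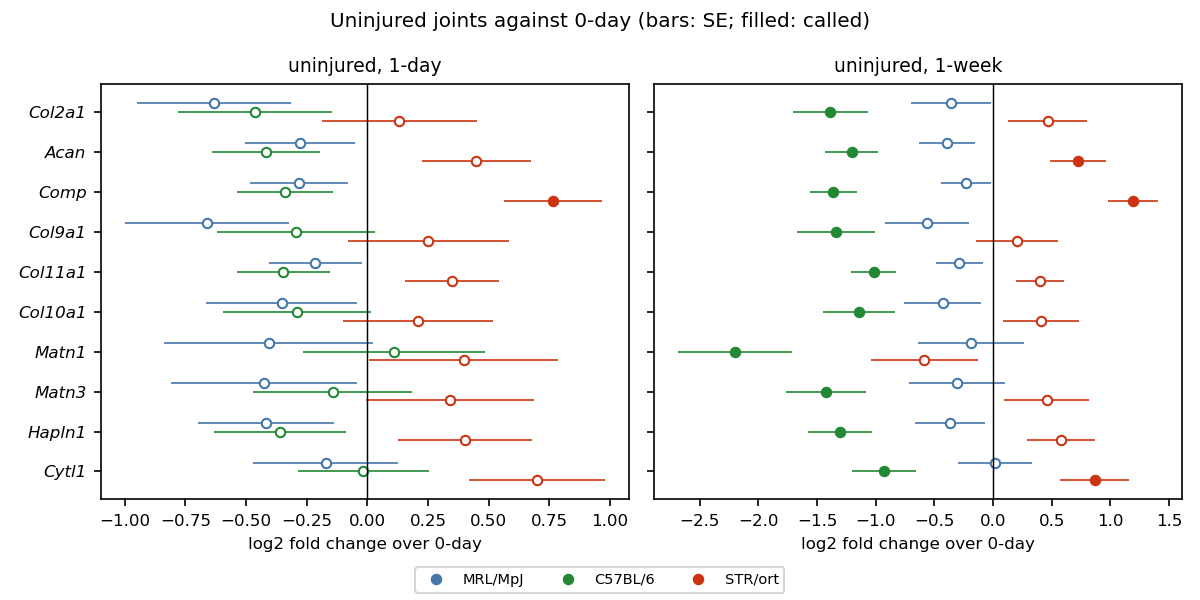
Log2 fold change of uninjured contralateral joints at 1-day and 1-week over 0-day joints of the same strain, with SE as error bars and called genes filled. All 10 genes were called lower in C57BL/6 at 1-week, from -0.93 to -2.20, and Comp reached 1.19 in STR/ort.

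From 1-day to 1-week, injured joints gained Comp in MRL/MpJ (1.04 ± 0.19, adjusted p = 6.98e-05) and STR/ort (0.95 ± 0.19, adjusted p = 4.34e-05), and Acan in STR/ort (1.37 ± 0.21, adjusted p = 3.79e-07). In MRL/MpJ 1 gene was called (3.11% of all genes). In C57BL/6 2 were lower (4.47%), Cytl1 (-1.04 ± 0.28, adjusted p = 0.00713) and Matn1 (-1.75 ± 0.53, adjusted p = 0.016). In STR/ort 3 were higher and 1 lower (13.9%), with Col11a1 at 0.59 ± 0.18 (adjusted p = 0.00833) and Matn1 at -1.32 ± 0.40 (adjusted p = 0.00732). Cytl1 in injured MRL/MpJ (-0.11 ± 0.30) and STR/ort joints (-0.48 ± 0.27) did not pass the test between these times. Without the libraries of replicate number 2 in every group, Cytl1 (-0.70, adjusted p = 0.158) and Matn1 (-1.24, adjusted p = 0.136) in C57BL/6 lost their calls. Matn1 in C57BL/6 also lost it without number 1 (adjusted p = 0.0814) or 4 (adjusted p = 0.0849), and Matn1 in STR/ort without number 3 (adjusted p = 0.0888). Col11a1 in STR/ort lost its call without number 1 (0.39, adjusted p = 0.156), and its fold was below 1.5 without number 5 (0.53) and with the fast muscle covariate (0.54).

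Other genes of cartilage were followed in lists. Of 4 other cartilage collagens, 4 were higher in C57BL/6 than in MRL/MpJ at 0-day (median log2 fold change 1.00; 15.9% of all genes called), 4 fell in uninjured C57BL/6 joints at 1-week (-1.25; 5.72%), and after injury 1 was called, Col27a1, a fibrillar collagen of cartilage, in STR/ort at 2-weeks (0.60, adjusted p = 0.00102). Of 14 other cartilage matrix proteins, 10 were higher in C57BL/6 than in MRL/MpJ at 0-day (median 1.25). By p these were led by Cilp2 (1.89, adjusted p = 3.6e-08), Chad (1.35, adjusted p = 4.39e-07) and Cilp (1.615, adjusted p = 1.05e-06). Strain and muscle content cannot be told apart in this pair. After injury 0, 2 and 3 of the 14 were lower at 1-day in MRL/MpJ, C57BL/6 and STR/ort (2.02%, 5.6% and 4.31% of all genes called). At 1-week 0, 1 and 1 were higher and 0, 0 and 3 lower (3.13%, 5.82% and 9.21%), and at 2-weeks 1, 2 and 2 were higher (1.16%, 2.95% and 4.66%). Chad, chondroadherin, which binds collagen and integrins, was lower in STR/ort at 1-day (-0.61) and 1-week (-0.97, adjusted p = 0.00122). At 1-day, Cilp2 was lower in injured STR/ort joints (-1.43, adjusted p = 3.88e-06) and Ucma in injured C57BL/6 joints (-1.01, adjusted p = 0.00546). Matn4, the matrilin outside the 10 genes, was higher at 1-week in C57BL/6 (1.37) and STR/ort (1.33) and at 2-weeks in MRL/MpJ (1.09), C57BL/6 (1.43) and STR/ort (1.48, adjusted p = 3.92e-08), and lower in STR/ort at 1-day (-0.73).

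Of the chondrocyte transcription factors Sox9, Sox5 and Sox6, which drive Col2a1 and Acan, 1, 2 and 1 were higher at 1-week in MRL/MpJ, C57BL/6 and STR/ort (3.13%, 5.82% and 9.21% of all genes called), and 2 were higher in STR/ort at 2-weeks (4.66%). Sox9 was called in C57BL/6 (1.07) and STR/ort (0.82) at 1-week and in STR/ort at 2-weeks (0.74), and Sox5 in MRL/MpJ (0.75) and C57BL/6 (0.99) at 1-week and in STR/ort at 2-weeks (0.77). Of 5 genes of glycosaminoglycan synthesis, which build and sulfate the chains that Acan carries, Csgalnact1, which starts chondroitin chains, was higher in 7 of 9 injury comparisons. Its log2 fold change was 0.73, 1.32 and 0.81 at 1-day, 0.71, 1.02 and 1.13 at 1-week in MRL/MpJ, C57BL/6 and STR/ort, and 1.03 in STR/ort at 2-weeks (adjusted p = 3.89e-09). Of 7 growth plate and hypertrophic genes, 1 was called after injury, Sp7, a transcription factor of osteoblasts, lower in STR/ort at 1-week (-0.76).

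Within groups, 8 of the matrix genes moved together over the 100 libraries: the correlations between their log2 levels after removal of group means ranged from 0.45 to 0.96 with a median of 0.85 over 28 pairs. The correlations of Cytl1 with them were lower, from 0.19 to 0.40 with a median of 0.33. With the summed level of the 14 other cartilage matrix proteins Cytl1 had 0.65, near Matn3 (0.65) and Col11a1 (0.64), with osteoblast and osteocyte markers 0.50 and with growth plate and hypertrophic genes 0.43. Matn1, with few counts, had a median of 0.77 with the 9 others. These are descriptions over libraries that differ in depth and muscle content. Among 14407 genes at a mean of at least 1 CPM, those most like Cytl1 over the 21 group means were Chad (r = 0.88), Hhip (0.86), BC055402 (0.84), Ifi27l2a (0.83) and Cacna2d3 (0.83). Over 100 libraries after removal of group means they were Chad (0.71), Mfi2 (0.70), Tnfrsf11b (0.69), Clec3a (0.66) and Mepe (0.63), so that Chad came first in both. The genes most like the mean of the 9 matrix genes were Col9a3 (0.95), Col9a2 (0.94), Loxl4 (0.94), Fgfr3 (0.94) and Bambi (0.93) over group means, and Col9a3 (0.95), Lect1 (0.95), Col9a2 (0.94), Col27a1 (0.90) and Panx3 (0.89) within groups.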

How the data were processed

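RNA was extracted from whole knee joints, poly(A) selected and sequenced. The authors aligned reads to mm10 with TopHat2 (version 2.0.11), counted reads on RefSeq genes with featureCounts, and deposited raw counts without normalization, which are the values used here. Strandedness was not stated, so that reads of overlapping genes on opposite strands cannot be told apart. The authors themselves normalized with RUVSeq on 25 housekeeping genes and tested with edgeR; the number of factors and the libraries of each fit were not given in the sources used here, so that the main fits used no such factor. Every gene had 2 or more counts in 5 or more libraries, the filter of the study, so that none (0) was dropped. Of 17313 rows, 3 repeats were dropped.

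The quasi-likelihood test of edgeR (version 4.0.16, under R 4.3.3) was run on the counts after TMM scaling, with Benjamini-Hochberg adjustment over 17310 genes. A gene was called at adjusted p below 0.05 and fold above 1.5, the thresholds of the study. Each time point was fitted on its own with 1 mean for each strain and joint, and comparisons over time came from 1 fit of the 70 libraries of the first batch. Adjusted p values without a named tool are from edgeR. SEs were computed as the log2 fold change over the root of F. A prior count of 2 was added for log2 levels. The steps were checked on simulated data.

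Replicate libraries were taken as separate samples, as the labels number them; where nothing states separate animals, p values measure the spread between these samples. None of 190 pairs within groups was identical. Same-numbered joints were checked for pairing by the correlation of their deviations from group means. At 2-weeks the labels name the same animal for both joints, although the 5 correlations ranged from -0.46 to 0.08 in MRL/MpJ, from 0.21 to 0.36 in C57BL/6 and from 0.30 to 0.62 in STR/ort. At 1-week, where the labels name no animals, every pair exceeded 0.1 in MRL/MpJ (from 0.12) and STR/ort (from 0.19). Since the named pairs of MRL/MpJ at 2-weeks did not exceed 0.1, such correlations cannot show whether the numbers pair the joints.

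Alternatives were RLE size factors, DESeq2 (version 1.42.0), RUVg with 1 factor, filterByExpr, 1 fit of all libraries, the replicate number as a block, adjusted p alone, levels by total count alone, and each library left out. The fast muscle covariate and the fits without the 8 libraries that stood apart were chosen after seeing the data. The 10 genes, the other lists and the comparisons were chosen with earlier results of these data known. Named outside the 10 are up to 4 genes per list with the smallest adjusted p at 0-day and in the injury comparisons, and the 5 genes most like Cytl1 or the mean of the matrix genes. Promoters come from RefSeq (GRCm38.p6).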

Additional observations from a re-analysis of the deposited data

Results flagged for a closer look

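In groups of 4 or 5 libraries, a library was set apart when its gap to the nearest other library exceeded Dixon's 95% critical value for the range, which chance alone does for about 1 in 20 groups; 210 groups of values, 10 genes in 21 groups, were examined and 15 were flagged. In injured C57BL/6 joints at 1-day, replicate 3 was low in Acan (147 CPM, the others 395 to 434) and Comp (251 CPM, 432 to 505). In uninjured C57BL/6 joints at 1-day, replicate 2 was high in Matn3 (94.4 CPM, 57.5 to 61.5) and Hapln1 (271 CPM, 166 to 190.3). In injured MRL/MpJ joints at 2-weeks, replicate 4, which had 1.84 times the median fast muscle sum of its group, was low in Col11a1 (214 CPM, 392 to 419.8) and Matn3 (4.57 CPM, 18.5 to 22.3), and replicate 3 in Comp (195 CPM, 333 to 362). In injured C57BL/6 joints at 2-weeks, replicate 2 was low in Col10a1 (293 CPM, 465 to 516) and Matn3 (27.2 CPM, 48.5 to 56.9). Cytl1 was high in C57BL/6 replicate 4 at 0-day (189 CPM, 107 to 112) and in injured STR/ort replicate 5 at 2-weeks (30.3 CPM, 15.5 to 18.5). Single values were Col2a1 in uninjured STR/ort replicate 3 at 1-week (2998 CPM, 3604 to 3683), Acan in injured C57BL/6 replicate 5 at 1-week (776 CPM, 442 to 503; fast muscle sum 0.652 of the group median), Col10a1 in uninjured MRL/MpJ replicate 4 at 1-week (234 CPM, 103 to 117) and Hapln1 in MRL/MpJ replicate 4 at 0-day (156 CPM, 94.2 to 102).

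The response of Comp at 1-week differed between strains by the interaction test, by -1.08 on the log2 scale in STR/ort against MRL/MpJ and by -1.05 against C57BL/6. These calls were lost in 8 and 22 fits without 1 library, and the latter with RLE size factors (adjusted p = 0.05). Uninjured STR/ort joints had a mean of 1058 CPM at 1-week and 0-day STR/ort joints 458 CPM.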

How the results depend on the processing

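Of 173 calls of the 10 genes in 480 tests, 43 were lost in at least 1 fit without 1 library, and 0 changed sign there. RLE size factors lost 2 calls, DESeq2 7, filterByExpr 1 and 1 fit of all libraries 6. RUVg kept 105 of the calls, lost 51 with the sign as before and turned the sign of 17, and the fast muscle covariate kept 111, lost 46 and turned 16, none of those turned being called; the cause was not tested. Of 24 calls in the injury comparisons and interactions the replicate block lost 0, and it made 9 calls of injury at 1-day (5 without it), 1 interaction call at 1-day (0) and 1 at 2-weeks (0). Those it added at 1-day were Matn1 (-1.04), Hapln1 (-0.71), Col9a1 (-0.77) and Col2a1 (-0.62), lower in C57BL/6. There the labels name no animals, and 4 of 5 same-numbered joints correlated above 0.1 (lowest 0.0741), which cannot show whether they are pairs. At 1-week it added Col10a1, lower in C57BL/6 (-0.64). RLE left 1 interaction call at 1-week (2). Adjusted p alone, without the fold, and levels by total count alone moved no count by over 1.5 times and no level by over 1 SD. For uninjured joints at 1-day over 0-day, filterByExpr gave 2 calls (1), and the fit without the libraries that stood apart in muscle 2, while RUVg and the muscle covariate gave 0. Without these libraries there was 1 interaction call at 1-day and 1 at 2-weeks. RUVg with 1 factor gave 10 calls between strains in uninjured joints at 1-day (19), 6 at 1-week (21) and 12 at 2-weeks (20), 2 in injured joints at 1-day (12) and 5 at 1-week (21), and 2 interaction calls at 2-weeks. The fast muscle covariate gave 3 calls at 0-day (17), 8 of injury at 1-day, 3 between injured joints at 1-day, 9 between uninjured and 8 between injured joints at 1-week, and 2 interaction calls at 2-weeks. Without 1 library, calls of injury at 1-day ranged from 2 to 8, interaction calls from 0 to 1 at 1-day, 0 to 2 at 1-week and 0 to 1 at 2-weeks, and without 1 replicate number calls of uninjured joints over 0-day from 0 to 3 at 1-day and 8 to 13 at 1-week.

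With the fast muscle covariate the sign turned at 0-day in C57BL/6 against MRL/MpJ for Col2a1 (-0.96), Acan (-0.22), Comp (-0.0649), Col9a1 (-0.67), Col11a1 (-0.17), Col10a1 (-0.54), Matn3 (-0.20) and Hapln1 (-0.62), and in STR/ort against C57BL/6 for Acan (0.65), Col9a1 (1.03), Col11a1 (0.25), Col10a1 (0.82), Matn3 (0.81) and Cytl1 (0.0864). It also turned in injured joints at 1-week for Col10a1 against MRL/MpJ (-0.20) and Col9a1 against C57BL/6 (-0.0029). With RUVg the sign of STR/ort against MRL/MpJ turned at 1-week in uninjured joints for Col2a1 (-0.64), Col9a1 (-0.66), Col10a1 (-0.16) and Matn3 (-0.15) and in injured joints for Col2a1 (-0.70), Col9a1 (-0.49) and Col10a1 (-0.66). Against C57BL/6 it turned in uninjured joints for Col2a1 (-0.16), Col9a1 (-0.75), Col11a1 (-0.0693), Col10a1 (-0.45), Matn1 (-0.0512) and Matn3 (-0.43) and in injured joints for Col2a1 (-0.59), Col9a1 (-0.78), Matn1 (-0.0843) and Matn3 (-0.56). The cause was not tested. Depth limits Matn1 most, with a median of 31 counts per library.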
